A study of Homo sapiens with 6 samples.

Results

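The 43 genes described here are type I interferon-stimulated genes, taken by name from a list of genes known to be induced by interferon and matched through their Ensembl IDs to the 60612 gene IDs of the count files. All 43 had an ID, all had at least 1 count in every library, and 42 passed the filter on low counts. The remaining gene, IFI27 (ENSG00000165949), had between 3 and 13 counts per library and was not tested. No measured value was used to choose the genes, although results of the same libraries were known when the list was drawn up.

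RNA came from KO52, an established line of acute myeloid leukemia cells whose genotype the labels give as CEBPA double mutant. All 6 libraries came from cells transduced with a lentiviral, doxycycline-inducible vector and sorted for GFP after induction, so no library shows untransduced cells. The EV group (2 libraries) carried the empty vector, the dnCEBP group (2 libraries) a dominant negative C/EBP peptide, and the dnFOS group (2 libraries) a dominant negative FOS peptide. These peptides pair with C/EBP or AP-1 transcription factors and keep them from DNA, and the comparison with EV asks which transcripts differ when either family is blocked. The dose and time of doxycycline before RNA extraction, and whether replicates were separate cultures, are not given in the labels used here, so p-values measure only the spread between these samples, which may be technical.

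As background, cells that meet viral RNA or DNA make type I interferon, which binds its receptor on the same and neighbouring cells. Receptor-bound kinases then activate the complex ISGF3, which holds STAT2 and IRF9 and binds the interferon-stimulated response element, or ISRE, in the promoters of many genes. A number of these genes are also transcribed at a low level without added interferon. Their products sense viral RNA, block its translation, degrade it, or keep virus from entering and leaving the cell.

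Because interferon acts on many of these genes through the ISRE, the 250 bases before the start of transcription are printed for 6 of them. The 6 are SAMD9, called higher in both peptide groups, RSAD2, called in dnCEBP, and IFI6, IFIT5, DDX60 and PARP14, called in dnFOS. Sequences are those of RefSeq on GRCh38.p14, read 5′ to 3′ along the gene, and capitals mark each match that lies fully inside the printed bases to the ISRE core, which is GAAA, any 2 bases and GAAA again, on either strand.
SAMD9 (chr7:93117980-93118229, minus strand): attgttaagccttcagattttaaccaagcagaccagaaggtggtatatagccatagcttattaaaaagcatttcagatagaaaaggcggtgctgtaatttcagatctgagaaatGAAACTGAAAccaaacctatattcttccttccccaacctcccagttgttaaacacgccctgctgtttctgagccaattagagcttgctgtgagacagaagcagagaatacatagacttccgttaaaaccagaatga
RSAD2 (chr2:6865635-6865884, plus strand): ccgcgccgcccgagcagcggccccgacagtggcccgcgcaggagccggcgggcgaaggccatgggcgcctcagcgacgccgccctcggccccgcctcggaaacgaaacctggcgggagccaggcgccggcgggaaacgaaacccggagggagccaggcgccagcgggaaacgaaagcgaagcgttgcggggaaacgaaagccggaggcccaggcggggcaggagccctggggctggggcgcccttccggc
IFI6 (chr1:27672193-27672442, minus strand): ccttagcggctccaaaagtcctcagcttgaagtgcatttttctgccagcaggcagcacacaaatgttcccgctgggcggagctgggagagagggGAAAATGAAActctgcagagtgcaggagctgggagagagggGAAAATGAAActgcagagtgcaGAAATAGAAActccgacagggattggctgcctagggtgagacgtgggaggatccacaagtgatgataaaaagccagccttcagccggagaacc
IFIT5 (chr10:89414318-89414567, plus strand): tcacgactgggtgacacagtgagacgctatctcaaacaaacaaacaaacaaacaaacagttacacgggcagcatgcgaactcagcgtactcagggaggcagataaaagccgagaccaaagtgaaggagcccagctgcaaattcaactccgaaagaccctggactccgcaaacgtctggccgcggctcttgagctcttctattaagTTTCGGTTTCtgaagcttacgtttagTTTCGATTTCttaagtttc
DDX60 (chr4:168318753-168319002, minus strand): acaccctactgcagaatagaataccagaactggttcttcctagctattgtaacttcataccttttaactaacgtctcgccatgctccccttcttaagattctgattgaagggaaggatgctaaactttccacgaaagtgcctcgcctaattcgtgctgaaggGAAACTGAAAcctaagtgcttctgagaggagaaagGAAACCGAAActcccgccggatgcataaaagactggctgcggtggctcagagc
PARP14 (chr3:122680589-122680838, plus strand): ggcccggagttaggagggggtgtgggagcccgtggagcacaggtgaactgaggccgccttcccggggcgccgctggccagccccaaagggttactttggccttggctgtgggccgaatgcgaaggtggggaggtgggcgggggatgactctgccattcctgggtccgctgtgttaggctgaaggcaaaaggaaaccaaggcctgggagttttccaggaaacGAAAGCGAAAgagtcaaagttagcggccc

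IFI6 held 3 matches, and DDX60 held 2. In IFIT5 the matches read TTTC on the printed strand, and 1 more match, which starts 4 bases before the start of transcription, crosses it and is left in lower case. SAMD9 and PARP14 held 1 match each, at 136 and 29 bases before the start, and the printed RSAD2 bases held no match to this core. Only 1 start per gene was read, and that of RSAD2 lies within CMPK2, which runs to chr2:6866635 on the opposite strand. Other starts of RSAD2 were not searched, so a match there would be missed.

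RefSeq promoters of 300 bases, 250 before and 50 after the start, were at hand for 34 of the 43 genes. The ones not matched were IRF7, OAS2, OASL, IFIT2, IFITM2, LY6E, MX2, USP18 and TRIM22. An ISRE core was found in 23 of the 34 (67.6%) and in 1255 of all 35116 promoters (3.57%). It was found in 7 of the 9 genes called higher in dnFOS and in 16 of the other 25 (77.8% and 64.0%). The AP-1 core TGANTCA lay in 3 of the 34 promoters (8.82%, against 7.71% of all), those of IFIT5, ISG20 and SAMD9L. The C/EBP core TTGCNNAA also lay in 3 (8.82%, against 10.5%), those of OAS1, HERC6 and SP110. The gamma-activated sequence TTCNNNGAA lay in 9 (26.5%, against 7.66%). All cores were searched on both strands, and a match is a description of letters and not a bound site.

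**Figure D1:**
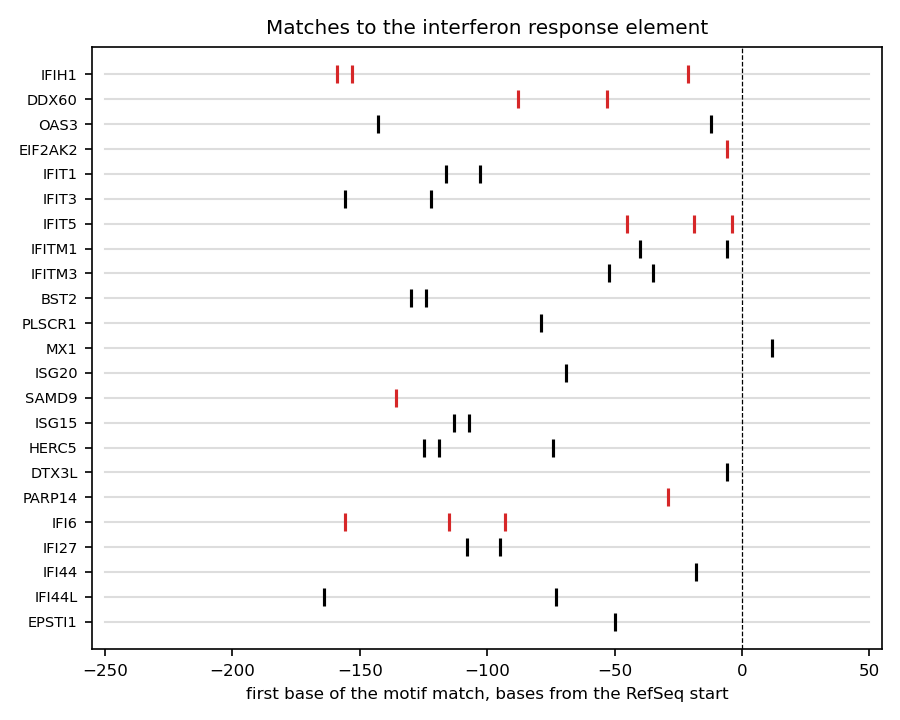
Positions of ISRE core matches in the promoters of the 23 interferon-stimulated genes that held 1 or more, in bases from the RefSeq start of transcription (dashed line). Red marks stand for genes called higher in dnFOS than in EV and black marks for the others, and none of the matches begins further upstream than that of IFI44L at -164.

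Total counts per library ran from 9862994 to 27663179, lowest in the dnFOS libraries, and 3 counts, taken as the limit of detection, stood for 0.111 to 0.290 CPM, which are counts scaled to a common library size. The signal recognition particle RNA RN7SL1 took 6.12% and 4.31% of the counts in dnFOS and 7.75% to 7.94% elsewhere. Summed over 8 myeloid blast markers, the level was 1255 to 1459 CPM. Of these, MPO and ANPEP were called lower in dnCEBP (MPO with a log2 value of -1.89, edgeR adjusted p = 5.03e-13), and MPO, ANPEP and PTPRC lower and CEBPA higher in dnFOS, and their part in the results was not tested. Plasmacytoid dendritic cell markers, the marks of the cells best known for making interferon, summed to 38.5 to 46.0 CPM, with CLEC4C at 0 in all libraries and LILRA4 at 0 to 3 counts, while IL3RA was lower in dnFOS than in EV (log2 fold change -0.94, edgeR adjusted p = 4.8e-05) and TCF4 had 0.29 (0.124). B cell markers summed to at most 1.93 CPM, with MS4A1 at 0. Markers of the packaging cells summed to 34.1 to 57.1 CPM, lowest in dnFOS. Nearly all of this was KRT8 and KRT18, while COL1A1 had 0 to 5 counts and CDH2 0 or 1.

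Levels of the genes differed widely within the EV libraries. Levels were divided by the kilobases of annotated exon, joined over all transcripts of a gene. Genes with annotated exons that are not used read too low on this scale, so the ranks are rough. IFITM1 stood highest in EV at 77.8 CPM per kb, followed by IFITM2 at 56.5. These proteins sit in cell membranes and hinder virus entry. Next came BST2 (27.0), which tethers budding virus to the cell, IFI6 (19.9), LY6E (18.2) and ISG15 (16.7), a ubiquitin-like protein joined to other proteins. SAMD9, an antiviral factor that also restrains growth, stood at 10.8 CPM per kb. At the other end were IFI27 at 0.117, the nuclease ISG20 at 0.0725 and IFI44L at 0.0490 CPM per kb. The sensors DDX58 and IFIH1 lay in the middle at 4.17 and 5.09.

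**Figure D2:**
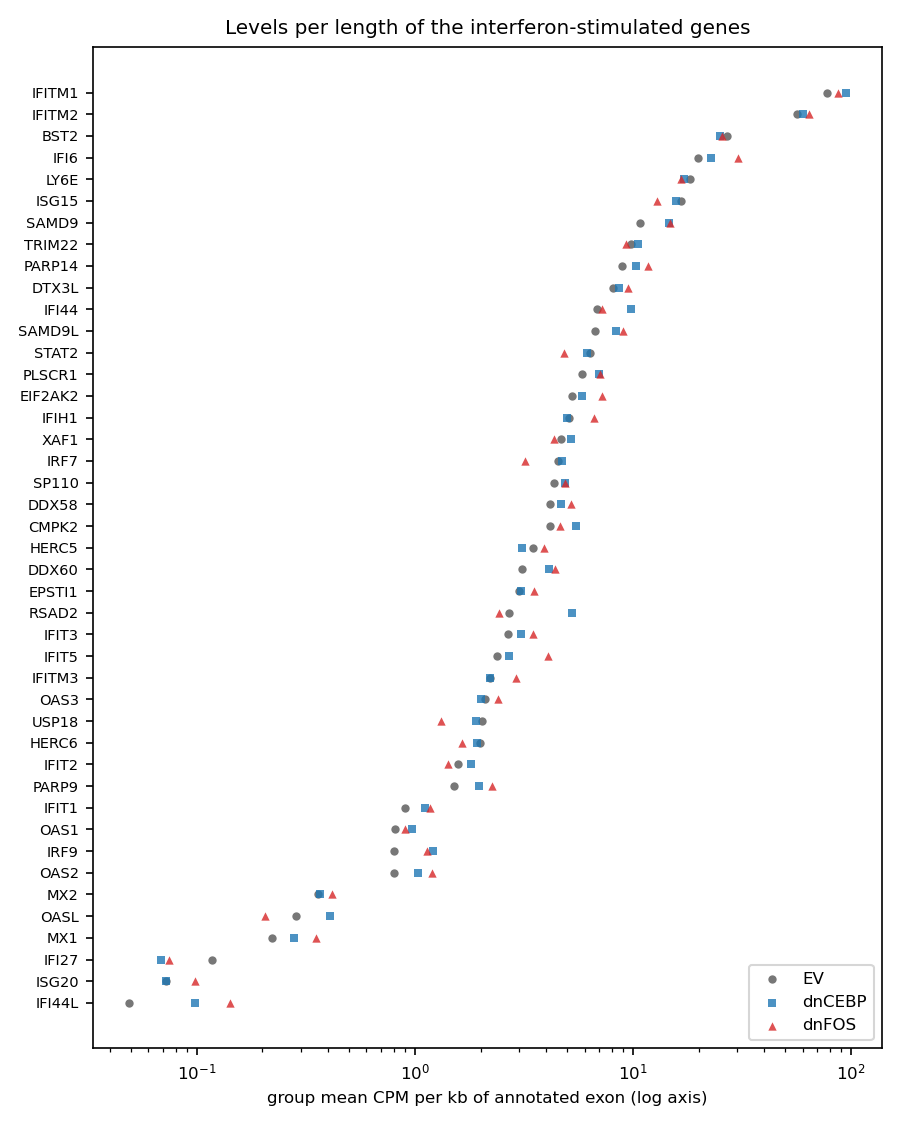
Group mean level of each of the 43 genes in CPM per kilobase of annotated exon, on a log axis, for EV (circles), dnCEBP (squares) and dnFOS (triangles). The range from IFI44L at 0.0490 to IFITM1 at 77.8 CPM per kb in EV is far wider than the distance between groups for any gene.

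IFITM1, IFITM2 and IFITM3 are related genes, and IFITM1 and IFITM2 also share annotated exon bases (32.5% and 22.8% of each), so their separate levels are uncertain. The same holds for IRF9, of which 48.4% of the exon bases also belong to a gene on the same strand, and, as the use of strand in counting is not given, for XAF1 (38.3%) and SP110 (20.9%), which overlap genes on the opposite strand. Added over all 43 genes, the level was 1043 and 1031 CPM with the empty vector, 1177 and 1181 under dnCEBP and 1207 and 1198 under dnFOS. Both peptide groups thus lay above both EV libraries. Without the IFITM genes this was so too, at 863 CPM in both EV libraries, 975 and 986 under dnCEBP and 1005 and 1004 under dnFOS. Such a sum rests most on the abundant genes and does not mean that the whole list moved. Of the 42 tested genes, 10 had a fold change below 0 in dnCEBP and 12 in dnFOS. In such bulk RNA, a change in the share of cells that express a gene and a change of its RNA per cell cannot be told apart.

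**Figure D3:**
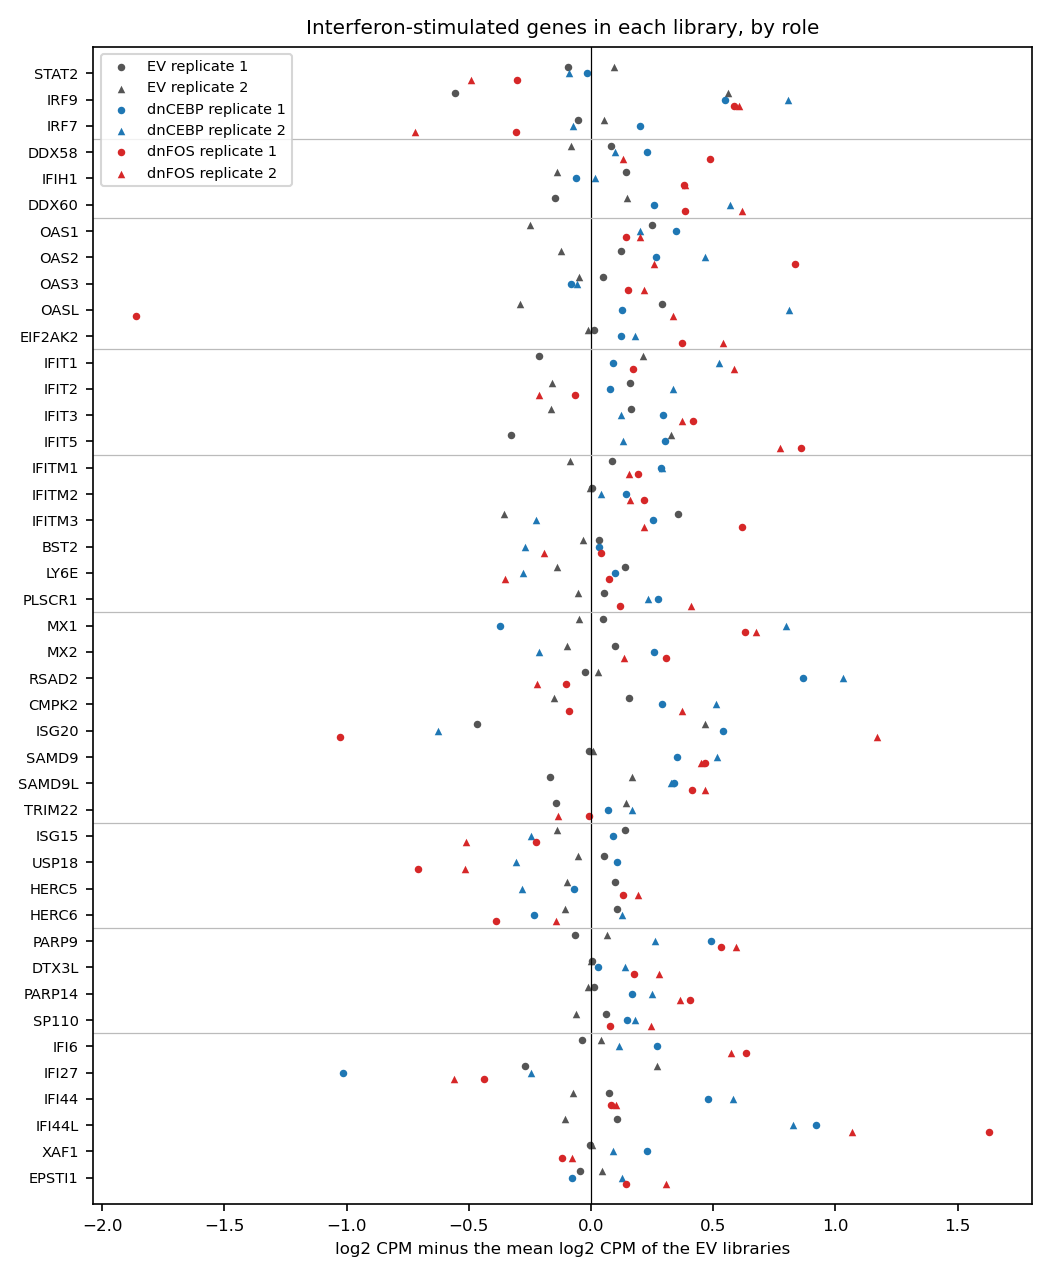
Level of each of the 43 genes in each library as log2 CPM minus the mean log2 CPM of the 2 EV libraries, with genes grouped by role between the grey lines. Circles are replicate 1 and triangles replicate 2 of EV (grey), dnCEBP (blue) and dnFOS (red), and genes with few counts such as OASL, ISG20 and IFI27 have the widest spread between replicates.

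In dnCEBP, RSAD2 and SAMD9 were the only interferon-stimulated genes called higher than in EV, and none was called lower. This was 4.76% of the 42 tested, against 0.624% of all 15395 genes tested that were called higher (96 genes), 0.448% called lower and 1.07% called in either direction. Of the 42, 32 had a fold change above 0, against 49.7% of all genes. The median log2 fold change was 0.18, with a range from -0.17 to 0.99, against a median of 0.00 over all genes. At an unadjusted p under 0.05, 11 lay higher and 0 lower, against 5.81% and 6.11% of all genes, and DESeq2 and limma-voom also called 0 lower. Both dnCEBP libraries lay above both EV libraries for 19 genes (45.2%) and below for 1, against 21.9% and 20.9% of all genes.

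RSAD2 (ENSG00000134321, chr2:6865806-6898239 on GRCh38), the radical SAM enzyme viperin that makes a chain-terminating nucleotide, had the smallest p of the list in dnCEBP. Its level was 12.8 and 13.3 CPM with the empty vector, 23.9 and 26.8 under dnCEBP and 12.2 and 11.2 under dnFOS. The dnCEBP libraries stood apart from the other 4, which lay close together. The log2 fold change in dnCEBP was 0.95 ± 0.14 (SE; edgeR adjusted p = 0.000163), a 1.94-fold difference of group means of 13.1 ± 0.34 and 25.4 ± 2.0 CPM (SD, n = 2). It passed the threshold under every alternative and with each library left out (adjusted p at most 0.011). Between dnFOS and EV the log2 fold change was -0.16 (95% interval -0.47 to 0.16; edgeR adjusted p = 0.554). Set against each other, dnFOS lay below dnCEBP by -1.11 ± 0.15 on the log2 scale (edgeR adjusted p = 3.49e-06). T and NK cell markers, nearly all of it CD3D, were also highest in dnCEBP, with 120 to 126 CPM in EV, 150 and 152 in dnCEBP and 96.3 to 109 in dnFOS, while CD3E had 0 to 4 counts and CD3G 0 to 7, and their part in the result was not tested.

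SAMD9 (ENSG00000205413, chr7:93099513-93118023 on GRCh38) was the one interferon-stimulated gene called higher than in EV in both peptide groups. It read 73.4 and 74.2 CPM with the empty vector, 94.2 and 105 under dnCEBP and 102 and 101 under dnFOS. All 4 peptide libraries lay above both EV libraries. The log2 fold change was 0.43 ± 0.09 in dnCEBP (edgeR adjusted p = 0.00678) and 0.46 ± 0.09 in dnFOS (0.00059), both against the same EV libraries, and the difference between the peptides was 0.02 (95% interval -0.15 to 0.20). The call in dnCEBP was lost without EV replicate 1, EV replicate 2 or dnCEBP replicate 2 (adjusted p from 0.0859 to 0.266). In dnFOS it was lost once a trend of the counts on GC content and length was removed, where the log2 fold change was 0.13 (edgeR adjusted p = 0.317). DDX60, SAMD9L, PARP9, PARP14, EIF2AK2 and IFI6 were called against EV in dnFOS alone. Both their dnCEBP libraries also lay above both EV libraries, as did those of 21.9% of all genes. Those of IFIH1 and IFIT5 did not. Since these genes were picked by their dnFOS call against the same EV libraries, low EV values raise both comparisons, and the likeness is no separate result.

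IFI44 (chr1:78649796-78664078), a cytoplasmic protein of the interferon response, came next to the threshold in dnCEBP. The levels were 14.6 and 13.1 CPM with the empty vector, 19.3 and 20.8 under dnCEBP and 14.7 and 14.9 under dnFOS. Both dnCEBP libraries lay above the other 4. Against EV the log2 fold change was 0.53 ± 0.14 and missed the threshold (edgeR adjusted p = 0.0624), with adjusted p between 0.034 and 0.123 over the alternatives without a replicate term. With 1 library left out it ran from 0.0298, without either replicate of dnFOS, to 0.537, without dnCEBP replicate 2. Its neighbour IFI44L had 13 and 10 counts with the empty vector, 28 and 20 under dnCEBP and 27 and 12 under dnFOS, where the libraries are smaller. Its log2 fold change was 0.99 in dnCEBP (edgeR adjusted p = 0.491), the largest of all 42 but with an SE of 0.54.

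**Figure D4:**
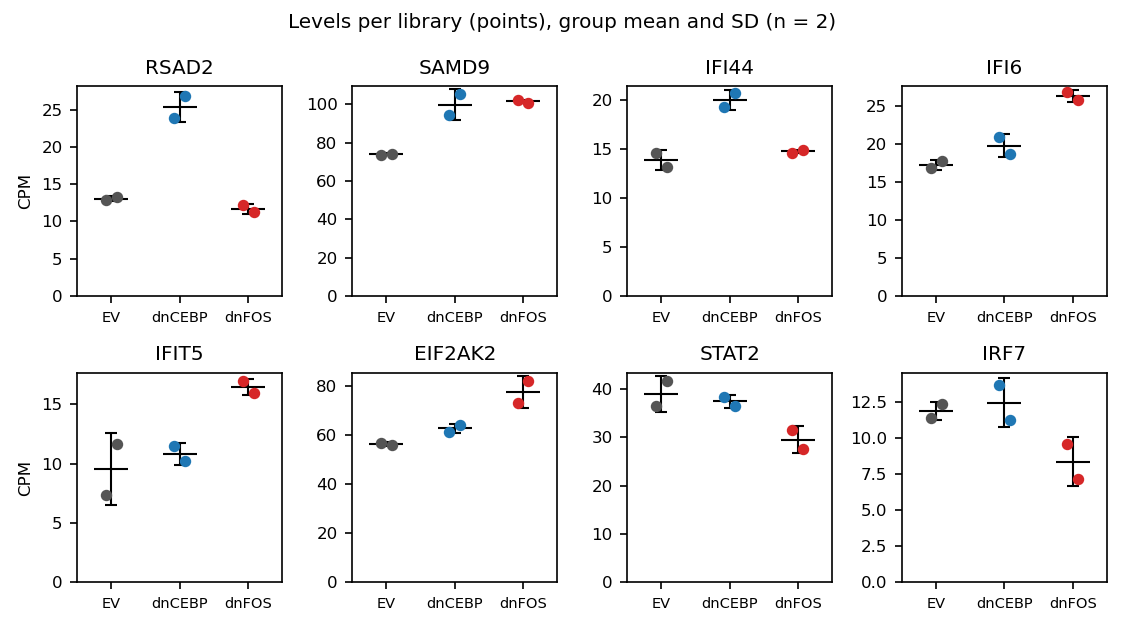
Level in CPM of 8 interferon-stimulated genes in each library (points), with the group mean (long bar) and SD (whiskers, n = 2) for EV (grey), dnCEBP (blue) and dnFOS (red). RSAD2 and IFI44 stand apart in dnCEBP, IFI6, IFIT5 and EIF2AK2 in dnFOS, SAMD9 is higher in both, and STAT2 and IRF7 are lowest in dnFOS.

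The rest of the dnCEBP comparison gave differences that did not pass the test. Some of them, such as that of IRF9 (log2 fold change 0.60 ± 0.28), were larger than that of SAMD9 but less precise. The group that holds the MX GTPases, which trap viral particles, RSAD2, CMPK2 and SAMD9 has 8 genes. All 8 fold changes lay above 0 and 2 were called, against 49.7% above 0 and 0.624% called higher over all genes. The fold changes of all tested genes of the IFIT group (4), the PARP9 group (4) and the IFI6 group (5) also lay above 0, with 0 called. MX1 itself read 1.97 and 1.83 CPM in EV and 1.44 and 3.38 in dnCEBP, so that the dnCEBP libraries lay on either side of EV, and its fold change turned negative without dnCEBP replicate 2 (log2 -0.40 to 0.83 over the libraries left out). OASL, a 2'-5' oligoadenylate synthetase-like protein, read 1.22 and 0.778 CPM in EV and 1.07 and 1.79 in dnCEBP, with a log2 difference of 0.50 ± 0.53 (edgeR adjusted p = 0.779). DDX60, SAMD9L and PARP9 had log2 fold changes of 0.41, 0.32 and 0.38 (edgeR adjusted p = 0.165, 0.145 and 0.241). All 4 genes of the ISG15 system, the conjugated protein ISG15, its human ligase HERC5, the related HERC6 and the protease USP18, had fold changes below 0 (-0.17 to -0.05), none called by edgeR, DESeq2 or limma-voom and 0 at an unadjusted p under 0.05.

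In dnFOS, 9 interferon-stimulated genes were called higher than in EV and 1, STAT2, lower. The 9 were the RNA sensors IFIH1 and DDX60, the RNA-binding proteins EIF2AK2 and IFIT5, the paired genes SAMD9 and SAMD9L, PARP9 and PARP14, and IFI6. They made up 21.4% of the 42 tested, against 7.24% of all genes called higher, and the gene called lower 2.38%, against 7.76%. In either direction 15% of all genes were called. The median log2 fold change was 0.22, with a range from -0.64 to 1.55, against 0.00 over all genes, and 30 of the 42 lay above 0 (50.4% of all genes). Both dnFOS libraries lay above both EV libraries for 25 genes (59.5%) and below for 7 (16.7%), against 28.3% and 28.4% of all genes. At an unadjusted p under 0.05, 15 lay higher and 4 lower, against 13.7% and 14.2% of all genes. Scaling by library totals alone, which moved the median of all genes to 0.10, gave 15 called higher and 0 lower, against 12.4% of all genes called higher.

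**Figure D5:**
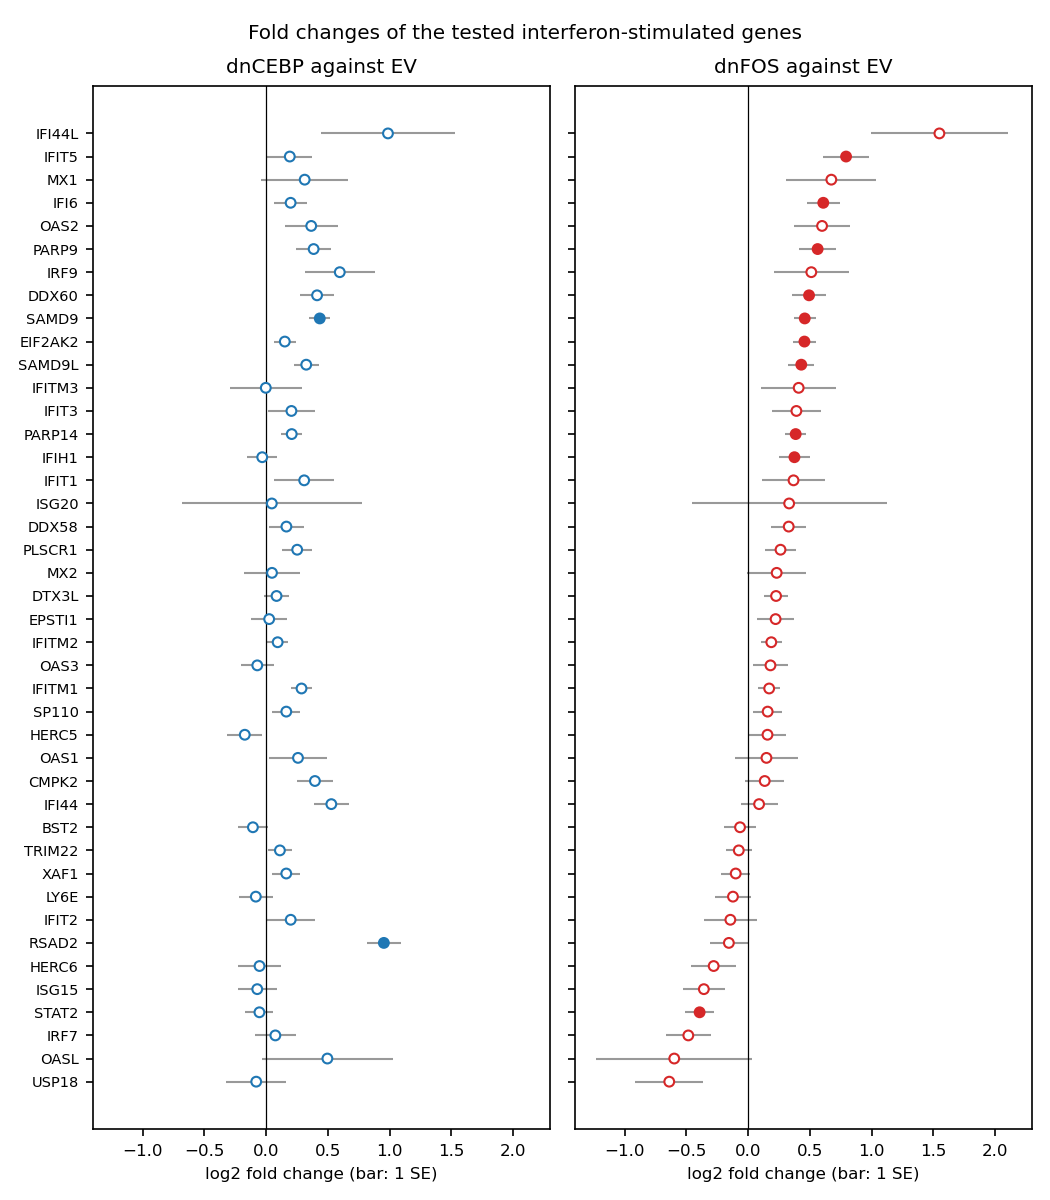
log2 fold change of the 42 tested interferon-stimulated genes against EV in dnCEBP (left) and dnFOS (right), ordered by the value in dnFOS, with bars of 1 SE. Filled points passed an edgeR adjusted p of 0.05, which are RSAD2 and SAMD9 in dnCEBP and 10 genes in dnFOS, and both panels share the EV libraries.

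By role, 2 of the 3 RNA sensors were called higher in dnFOS. So were 1 of the 5 genes of the group of EIF2AK2 and the oligoadenylate synthetases, and 1 of the 4 IFIT genes. Over all genes 7.24% were called higher, and lists this short cannot be set apart from the other roles. IFIH1 (MDA5, chr2:162267079-162318703), which detects long double-stranded RNA, read 28.5 and 23.4 CPM with the empty vector, 24.8 and 26.2 under dnCEBP and 33.7 and 33.7 under dnFOS. Only the dnFOS libraries lay outside the EV range. Its log2 fold change of 0.38 ± 0.12 was close to the threshold (edgeR adjusted p = 0.04) and missed it in DESeq2 (adjusted p = 0.0693), with the GC and length trend removed (0.108), and without EV replicate 2, dnFOS replicate 1 or dnFOS replicate 2 (up to 0.389). DDX60 (chr4:168216293-168318807), a helicase linked to RNA sensing, read 18.8 and 23.1 CPM with the empty vector, 24.9 and 30.9 under dnCEBP and 27.2 and 32.0 under dnFOS. All 4 peptide libraries lay above EV, and the log2 fold change in dnFOS was 0.49 ± 0.14 (edgeR adjusted p = 0.0157). That call was lost with the trend removed (0.100) and without EV replicate 1 or dnFOS replicate 2 (0.223 and 0.161). The remaining sensor, DDX58 (RIG-I), read 19.2 and 17.1 CPM in EV and 25.5 and 19.8 in dnFOS and was not called (log2 fold change 0.33, edgeR adjusted p = 0.126).

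EIF2AK2 (PKR, chr2:37099210-37157065), the kinase that stops translation when it binds double-stranded RNA, read 56.9 and 55.9 CPM with the empty vector, 61.3 and 63.9 under dnCEBP and 72.9 and 82.1 under dnFOS. The groups did not overlap and stood in that order. The log2 fold change was 0.46 ± 0.09 in dnFOS (edgeR adjusted p = 0.00114, at most 0.03 over the alternatives and the libraries left out) and 0.15 in dnCEBP (0.551). IFIT5 (chr10:89414586-89421001), which binds RNA with a 5′ triphosphate, read 7.38 and 11.7 CPM with the empty vector, 11.5 and 10.2 under dnCEBP and 16.9 and 15.95 under dnFOS. EV replicate 1 was low, yet both dnFOS libraries exceeded the other 4. Its log2 fold change of 0.79 ± 0.19 (edgeR adjusted p = 0.0038) was the largest among the 9, and was 0.50 without EV replicate 1 (0.147). Of the other IFIT genes, which bind foreign RNA ends, IFIT1 and IFIT3 had log2 fold changes of 0.37 and 0.39 and IFIT2 of -0.14, none called. The 2'-5' oligoadenylate synthetases OAS1, OAS2 and OAS3, which activate RNase L, had 0.15, 0.60 and 0.18, none called (smallest edgeR adjusted p = 0.0709, for OAS2). OASL had 29 and 17 counts with the empty vector and 3 and 13 under dnFOS, with a log2 difference of -0.60 ± 0.63 (edgeR adjusted p = 0.589) whose sign turned without dnFOS replicate 1.

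PARP14 and PARP9 belong to a family of ADP-ribosyl transferases, and PARP9 acts in a complex with the ubiquitin ligase DTX3L. PARP14 (chr3:122680618-122730840) read 94.7 and 93.1 CPM with the empty vector, 105 and 112 under dnCEBP and 124 and 121 under dnFOS. The groups did not overlap and again stood in that order. Its log2 fold change in dnFOS was 0.39 ± 0.08 (edgeR adjusted p = 0.00221) and passed under every alternative and with each library left out (at most 0.0389). PARP9 (chr3:122527924-122564577) read 12.96 and 14.2 CPM with the empty vector, 19.1 and 16.3 under dnCEBP and 19.7 and 20.5 under dnFOS. Again all 4 peptide libraries lay above EV. The log2 fold change in dnFOS was 0.56 ± 0.15 (edgeR adjusted p = 0.00906), and the call was lost without EV replicate 1 (0.104) or dnFOS replicate 2 (0.0597). DTX3L, which shares a promoter region with PARP9, and SP110, a nuclear body protein, had 0.23 and 0.16 and were not called. Their dnFOS libraries lay above both EV libraries, as did those of 28.3% of all genes.

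IFI6 (chr1:27666061-27672218), a small membrane protein that opposes apoptosis and flavivirus replication, read 16.8 and 17.7 CPM with the empty vector, 20.8 and 18.7 under dnCEBP and 26.8 and 25.7 under dnFOS. The dnFOS libraries stood well above the rest. The log2 fold change was 0.61 ± 0.13 (edgeR adjusted p = 0.00233, at most 0.0348 over the alternatives and the libraries left out), a 1.53-fold difference, against 0.20 in dnCEBP (0.590). SAMD9L (chr7:93130055-93148369), the neighbour of SAMD9 and like it a brake on growth and translation, read 42.1 and 53.2 CPM with the empty vector, 60.0 and 59.3 under dnCEBP and 63.0 and 65.5 under dnFOS. EV replicate 1 was again the lowest. Its log2 fold change in dnFOS was 0.43 ± 0.11 (edgeR adjusted p = 0.00544), lost without EV replicate 1 (0.239) and with the trend removed (0.119). IFI44L reached 1.55 ± 0.55 in dnFOS on its few counts (edgeR adjusted p = 0.0555), and MX1 0.67 ± 0.36 (0.230).

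Of the 3 transcription factors on the list, STAT2 alone was called in dnFOS. STAT2 (chr12:56341597-56360155), the subunit of ISGF3 that carries its activating domain, read 36.3 and 41.5 CPM with the empty vector, 38.4 and 36.5 under dnCEBP and 31.5 and 27.6 under dnFOS. The dnFOS libraries were the lowest. On the log2 scale the fold change came to -0.39 ± 0.12 (edgeR adjusted p = 0.0229), and the call was lost with library totals alone (0.0949) and without EV replicate 2 (0.197) or dnFOS replicate 2 (0.186). IRF7, which drives interferon genes, read 11.4 and 12.3 CPM with the empty vector, 13.7 and 11.2 under dnCEBP and 9.57 and 7.15 under dnFOS. Its dnFOS libraries were also the lowest, with a log2 fold change of -0.48 ± 0.18 that missed the threshold (edgeR adjusted p = 0.0746) and passed it without dnFOS replicate 1 (-0.73, 0.0334). It was -0.31 without dnFOS replicate 2 (edgeR adjusted p = 0.468) and -0.16 with the GC and length trend removed (0.596). IRF9, which binds the ISRE within ISGF3, read 1.89 and 4.21 CPM with the empty vector, 4.18 and 5.02 under dnCEBP and 4.30 and 4.35 under dnFOS. The EV libraries differed from each other by more than the groups did (log2 fold change 0.60 ± 0.28 and 0.51 ± 0.30, edgeR adjusted p = 0.401 and 0.282), and the values rested on which EV library was kept. Without EV replicate 1 they were 0.12 in dnCEBP and 0.04 in dnFOS (edgeR adjusted p = 0.958 and 0.971), and without EV replicate 2 they were 1.27 and 1.18 (0.0818 and 0.0229).

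In dnFOS, 3 of the 4 genes of the ISG15 system had fold changes below 0, none called by edgeR, DESeq2 or limma-voom and 2 at an unadjusted p under 0.05. USP18, which removes ISG15 and also holds back the interferon receptor, read 4.49 and 4.17 CPM with the empty vector, 4.66 and 3.48 under dnCEBP and 2.60 and 2.997 under dnFOS. Both dnFOS libraries lay below the other 4, yet the log2 fold change of -0.64 ± 0.28, the lowest of the 42, was not called (edgeR adjusted p = 0.122). ISG15 read 17.2 and 14.1 CPM in EV and 13.3 and 10.9 in dnFOS (-0.36 ± 0.17, edgeR adjusted p = 0.160). HERC6 had -0.28 and HERC5 0.16. The 6 membrane and entry factors were IFITM1, IFITM2, IFITM3, BST2, LY6E and the scramblase PLSCR1. They held no call against EV in the main edgeR fit, DESeq2 or limma-voom. In each comparison 2 of them lay higher at an unadjusted p under 0.05, and log2 fold changes in dnFOS ran from -0.12 to 0.41. IFITM1 and IFITM2 were called under some other edgeR settings, given below.

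The 9 genes called higher in dnFOS had a median GC content of 39.1% (36.0% to 56.1%), against 44.2% for the 42 tested and 47.7% for all genes tested. Across genes, which are not independent replicates, the log2 fold change in dnFOS had a Pearson r with GC content of -0.424 over the 42 and -0.303 over all 15222 genes with a value. In dnCEBP these were -0.405 and -0.214. With a smooth trend of the counts on GC content and length removed from each library, 7 interferon-stimulated genes were called higher in dnFOS, against 4.61% of all genes, and STAT2 was still called lower. IFIH1, DDX60, SAMD9 and SAMD9L were no longer called, and IFITM1 and IFITM2 were. In dnCEBP, RSAD2 and SAMD9 remained the ones called.

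Directly compared, dnFOS and dnCEBP differed at 7 interferon-stimulated genes. IFI6, IFIT5, IFIH1 and EIF2AK2 were called higher in dnFOS (9.52% of the 42, against 6.83% of all genes), and RSAD2, IRF7 and IFI44 lower (7.14%, against 7.84%). In either direction 14.7% of all genes were called. A fold change above 0 was seen for 25 of the 42 and 52.7% of all genes, and libraries did not overlap for 14 higher and 9 lower, against 28.6% and 25.9% of all genes. At an unadjusted p under 0.05, 6 lay higher and 5 lower, against 13.7% and 13.6%. The log2 differences were 0.41 for IFI6, 0.60 for IFIT5, 0.41 for IFIH1 and 0.31 for EIF2AK2 (edgeR adjusted p = 0.0342, 0.024, 0.0254 and 0.0239). For IRF7 and IFI44 they were -0.56 and -0.44 (edgeR adjusted p = 0.0376 and 0.041). In DESeq2 RSAD2 alone passed (the other 6 had adjusted p from 0.0505 to 0.0648). With the GC and length trend removed, 2 were called higher and 6 lower, EIF2AK2 (log2 0.16, edgeR adjusted p = 0.158) and IFIT5 (0.44, 0.0729) were lost, and STAT2, TRIM22 and XAF1 were added. Library totals alone gave 6 higher and 1 lower, against 13.6% of all genes called higher and a median of all genes moved to 0.14. IRF7 and IFI44 were lost under library totals and in limma-voom, and IFI6 with no low-count filter (0.0625). IFI6, IFIH1 and IFI44 lost the call without any one of the 4 libraries compared, EIF2AK2 without either dnCEBP library or dnFOS replicate 2, IFIT5 without dnCEBP replicate 2 or either dnFOS library, and IRF7 without dnCEBP replicate 1 or dnFOS replicate 2 (edgeR adjusted p up to 0.321). For SAMD9L the difference between the peptides was 0.11 (95% interval -0.11 to 0.32).

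Genes upstream of the response were read from the same fit, and 1 of them was called against EV. Of 20 genes for type I and type III interferons, 18 had 0 counts in every library, IFNB1 among them, and the others, IFNA5 and IFNA21, had 1 and 2 counts in dnFOS replicate 1 only, so interferon transcripts were not detectable at this depth, where 0 counts allow up to 0.111 to 0.290 CPM. Of 11 genes for interferon receptors, JAK kinases and STATs, 10 were tested and edgeR, DESeq2 and limma-voom called none against EV, with 2 under an unadjusted p of 0.05 in dnCEBP and 2 in dnFOS. By the same 3 tools none of 6 tested interferon regulatory factors was called against EV, with IRF1 at 0.06 and 0.01 and 0 at an unadjusted p under 0.05. Likewise none of 11 tested genes of nucleic acid sensing was called, with 1 under an unadjusted p of 0.05 in dnCEBP and 2 in dnFOS. Of 8 tested negative regulators, the phosphatase PTPN6 was called lower in dnFOS (-0.36, edgeR adjusted p = 0.00536), against 7.76% of all genes. None was called in dnCEBP, where 1 had an unadjusted p under 0.05 and the other tools also called 0. Over all genes, 1.07% were called against EV in dnCEBP and 15% in dnFOS, and 11.9% and 27.9% had an unadjusted p under 0.05. These lists are too short for their counts to be told from those shares. Between the peptides, edgeR called in dnFOS 1 receptor or JAK-STAT gene higher and 2 lower, 2 sensing genes higher, 1 interferon regulatory factor lower and 1 negative regulator lower, against 6.83% of all genes called higher and 7.84% lower.

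Of 8 tested genes better known as targets of IRF1 and interferon gamma, 1 was called higher in dnCEBP, against 0.624% of all genes, and 2 lower in dnFOS, against 7.76% of all genes. In dnFOS 4 of the 8 lay above 0. The guanylate-binding protein GBP4 read 6.63 and 5.17 CPM with the empty vector, 10.8 and 12.7 under dnCEBP and 8.79 and 7.35 under dnFOS, and rose in dnCEBP by 0.99 ± 0.19 on the log2 scale (edgeR adjusted p = 0.00447). GBP2, of the same family, read 79.8 and 73.0 CPM with the empty vector, 73.2 and 78.7 under dnCEBP and 32.3 and 33.6 under dnFOS. In dnFOS it lay far below every other library, with a difference of -1.21 ± 0.10 on the log2 scale (edgeR adjusted p = 4.79e-10). WARS, the tryptophanyl-tRNA synthetase, read 98.0 and 98.3 CPM with the empty vector, 81.3 and 76.6 under dnCEBP and 43.9 and 38.8 under dnFOS, and fell in dnFOS by 1.24 on the log2 scale (edgeR adjusted p = 1.33e-10). Both falls in dnFOS were larger than that of any of the 42 interferon-stimulated genes.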

How the data were processed

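RNA sequencing of 6 libraries (2 each of EV, dnCEBP and dnFOS) was analysed. Per the labels, total RNA was depleted of ribosomal RNA and sequenced in pairs of reads. The deposited tables give raw counts for each gene, which the authors made with Trimmomatic, HISAT2, featureCounts (Subread) and hg38 according to their processing notes, without versions or the use of strand. Group and replicate came from the sample titles. IDs were given symbols, coordinates and exon lengths from GENCODE 29 on GRCh38.

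Counts of the 15395 genes left by filterByExpr (minimum count 10) of 27870 with a count were fitted in edgeR 4.0.16 (R 4.3.3) with TMM factors and a robust quasi-likelihood model, a mean per group and no covariates, with 3 residual degrees of freedom. Contrasts were tested two-sided, adjusted by Benjamini-Hochberg over all genes tested, and called under 0.05. The study's methods name limma-voom, which was run as an alternative (limma 3.58.1), as was DESeq2 1.42.0. The SE was derived from the log2 fold change and its F. Scaled library sizes were used for CPM, with a prior count of 2 on the log2 scale. Counts of the 2 libraries of a group differed by more than sampling noise (chi-square per degree of freedom 8.05 to 14.4).

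The members and gene lists were chosen with earlier results of these data known. No set test was run, and lists are given by counts beside those of all genes. Named were STAT2, IRF9, IRF7, every member called in any contrast, and the 5 largest absolute log2 fold changes against EV in each comparison. Scripts were tested on simulated data.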

Additional observations from a re-analysis of the deposited data

How the results depend on the processing

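The 2 libraries per group limit every test, and counting of shared or antisense exons could not be checked. The number of genes called in dnCEBP against EV (165) was 255 with no low-count filter, 297 with the compared groups alone, 248 once the trend on GC content and length was removed, and 33 to 314 with 1 library left out. The number of interferon-stimulated genes called there (2) was 1 to 4 with 1 library left out. In dnFOS against EV, leaving out 1 library gave 972 to 2426 genes and 6 to 10 interferon-stimulated genes, whose median log2 fold change was then 0.146 to 0.25, and 0.322 with library totals alone and 0.171 with the trend removed. Between the peptides, leaving out 1 library gave 1182 to 2262 genes and 2 to 7 interferon-stimulated genes, DESeq2 1, and library totals alone a median of 0.193. Removing the trend turned IFI44 in dnFOS to -0.10 and SAMD9 between the peptides to -0.193, which was also -0.055 to 0.107 with 1 library left out. Signs that turned with 1 library left out had ranges in dnCEBP of -0.171 to 0.118 for IFIH1, -0.105 to 0.549 for IFIT5, -0.076 to 0.203 for IRF7, -0.397 to 0.826 for MX1, -0.147 to 0.038 for STAT2 and -0.317 to 0.107 for USP18, and in dnFOS of -2.324 to 0.326 for OASL, none called under those settings. The cause of these changes was not tested, apart from the smaller number of samples. Replicate differences correlated little between groups (0.0174 to 0.0879). As noise weighs on such a correlation, it cannot decide whether replicate numbers pair the samples. With the replicate block 488 genes were called in dnCEBP, against 165 without it. Among them were 6 interferon-stimulated genes, with IFITM1, IFI44, DDX60 and SAMD9L added to RSAD2 and SAMD9. The edgeR adjusted p was 0.0117 for IFI44, 0.0271 for DDX60 and 0.0211 for SAMD9L. DESeq2 gave IFI44L and OASL no adjusted p in some contrasts.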

Other observations

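Several of the interferon-stimulated genes are neighbours, and their values are set side by side here. RSAD2 and CMPK2, a mitochondrial nucleotide kinase, lie head to head on chromosome 2. CMPK2 read 19.8 and 16.02 CPM with the empty vector, 21.8 and 25.5 under dnCEBP and 16.7 and 23.1 under dnFOS, with log2 fold changes of 0.40 ± 0.15 in dnCEBP (edgeR adjusted p = 0.251) and 0.13 ± 0.16 in dnFOS (0.627), against 0.95 and -0.16 for RSAD2. On chromosome 7, SAMD9 and SAMD9L had 0.43 and 0.32 in dnCEBP and 0.46 and 0.43 in dnFOS. On chromosome 10, IFIT2, IFIT3, IFIT1 and IFIT5 had -0.14, 0.39, 0.37 and 0.79 in dnFOS. On chromosome 4, HERC6 and HERC5 had -0.28 and 0.16 in dnFOS. On chromosome 3, PARP9, DTX3L and PARP14 had 0.56, 0.23 and 0.39.

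IFI27, one of the genes most strongly induced by interferon in many tissues, stayed near the limit of detection here, with 9 and 13 counts with the empty vector, 5 and 8 under dnCEBP and 5 and 3 under dnFOS. ISG20 had 8 and 16, 21 and 6, and 3 and 13 counts in the same order, and its replicates differed by more than the groups did.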
